A study of Saccharomyces cerevisiae with 24 samples.

Results

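The acetylation mimic of Sfp1, K655/657Q, was compared with WT in glucose and in raffinose, and the comparison described here is the difference between those effects, gene by gene: K655/657Q minus WT in raffinose, minus K655/657Q minus WT in YPD. It rests on 8 of the 24 RNA-seq libraries of the series, 2 for each strain in each medium, and on 6357 of the 6612 genes of the deposited table, those with a mean of at least 1 TPM, a transcript's share of its library adjusted for length. WT cells carried SFP1-MYC::KanMX and mutant cells SFP1-K655Q-K657Q-MYC::KanMX, so Sfp1 was Myc-tagged in all libraries. In the labels both strains had the background LPY and the alleles can1-100, ade2-1, ura3-1, trp1-1 and his3-11,15 with a leu2 allele. The strain list of the study gives the parent LPY3431 with that leu2 allele, other his3, trp1 and ura3 alleles and no ade2 or can1 allele. It gives the labelled alleles to another parent strain, in which K655/657Q was also built. Which genotype holds was not tested here. Cells grew in YPD, which holds 2% glucose, or were washed and moved from YPD to medium with 2% raffinose. For its carbon shift assay the study describes 1 generation in raffinose before glucose was added back. The labels number the replicates without saying whether they came from separate cultures. The p-values therefore measure the spread between replicate libraries, which may be technical. That spread was pooled over the 23 libraries fitted, most of them from other groups.

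Sfp1 is a zinc-finger activator of the genes of ribosome assembly, called RiBi genes, and of ribosomal protein (RP) genes. It is nuclear when nutrients are rich and leaves the nucleus when TORC1 is inhibited. The acetyltransferase NuA4 modifies both of these lysines. Glutamine in their place mimics the acetylated state, and arginine (K655/657R) a state that cannot be acetylated. Raffinose is used slowly by yeast and relieves part of the repression that glucose exerts. The number of independent clones behind each genotype is not given in the sources used here.

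An interaction above 0 means that the K655/657Q effect was more positive in raffinose than in YPD. A gene was called when the interaction had an adjusted p below 0.05 and a fold of at least 1.5, by limma on log2(scaled TPM + 1). A gene was counted as having opposite effects when, in addition, the K655/657Q effect had an adjusted p below 0.05 in each medium, with opposite signs. Within a medium, a gene is said to have risen or fallen where the adjusted p of the K655/657Q effect was below 0.05. All 5 MATa markers were present (16250 to 40370 TPM summed per library) and the 4 MATalpha markers were near background (16.4 to 42.7 TPM). SFP1 itself measured 11.5 and 12.4 scaled TPM in WT on YPD, 16.4 and 14.7 in K655/657Q on YPD, 17.2 and 16.8 in WT on raffinose and 18.2 and 18.8 in K655/657Q on raffinose. Its interaction of -0.24 was not called (SE 0.10, adjusted p = 0.0659), and the table holds no reads with which to check the substitutions. TPM are shares of a library and keep no depth, so neither total RNA per cell nor counting error can be given. RP transcripts took 23.2 to 32.6% of the TPM, most in YPD.

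The interaction was called for 1274 genes (20.04% of those tested), 678 upward (10.7%) and 596 downward (9.38%). Genes on the RiBi list, which was compiled for this work, made up 177 of the downward calls and are set aside below. So are the 137 RP genes, of which 1 was called in each direction. Any ribosome assembly genes missing from the list stay among the other genes. Of the other 6022 genes, 1095 were called, 677 upward and 418 downward. Among them 326 had opposite effects: 198 were lower than WT in YPD and higher in raffinose (3.11% of all genes tested), and 128 were higher in YPD and lower in raffinose. Over all genes, RiBi included, 4.22% had opposite effects of the second kind and 7.33% of either kind. Unnamed reading frames in no list made up 20 of the 198 genes and 18 of the 128. Whether they overlap RiBi genes, and so share reads with them, was not checked. The effect within a medium, with the same thresholds, was called upward for 6.69% and downward for 7.06% of genes in YPD, and for 1.40% and 2.17% in raffinose. The commonest form of a call was an effect in YPD alone, with 383 of the 677 upward and 224 of the 418 downward genes, and an effect in raffinose alone was seen for 52 and 43.

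**Figure D1:**
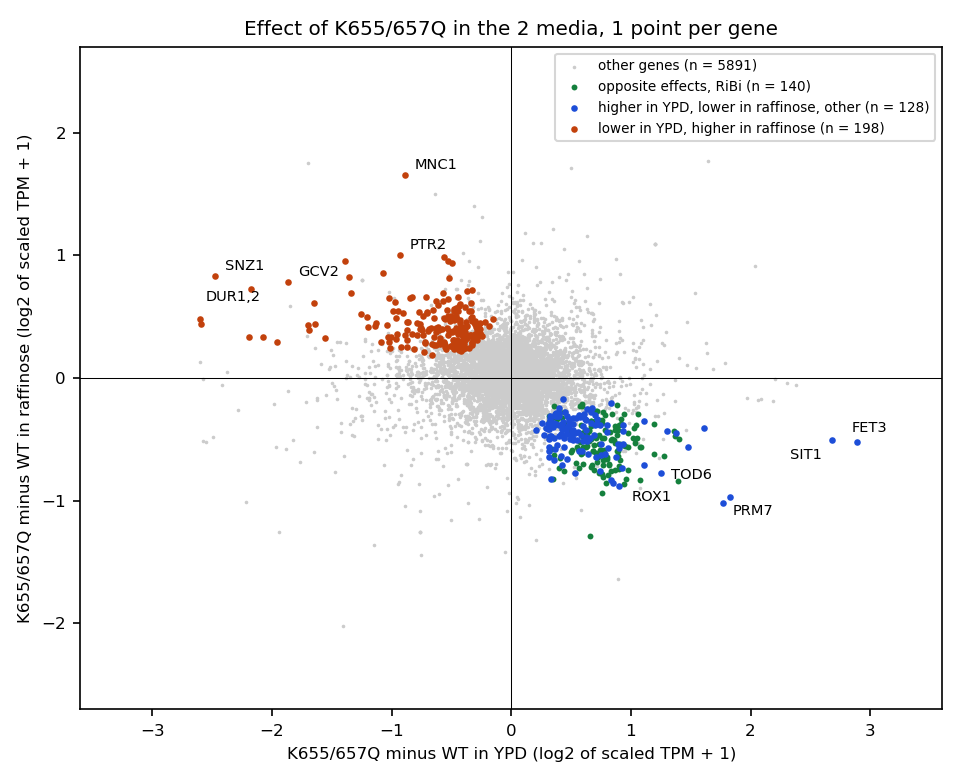
Each point is a gene, with the K655/657Q effect in YPD on the x axis and in raffinose on the y axis, both as differences of log2(scaled TPM + 1) between means of 2 libraries. The 198 genes lower in YPD and higher in raffinose fill the upper left, and the 128 genes of the reverse kind share the lower right with 140 RiBi genes.

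The K655/657Q and WT libraries did not overlap in either medium for any of the 326 genes, which the choice of these genes all but fixes and which is no support for them. Of all genes tested, 25.6% had libraries apart in both media and in opposite directions. The number of genes with opposite effects depended on single raffinose libraries: it fell to 194 without K655/657Q raffinose replicate 1 and to 184 without replicate 2. The upward count was 129 without WT raffinose replicate 2, and the downward count was 72 without WT raffinose replicate 1. Fitting the 30 min K655/657R library that had been left out gave 148 genes with opposite effects. Fitting only the 8 libraries of the comparison gave 290. The scaling moved the split between the directions: 53.2% of the calls were upward with median-of-ratios scaling, 28.0% with the TPM as deposited and 4.77% with scaling to ACT1. ACT1, the actin gene, had a called interaction of its own (0.59, SE 0.09, adjusted p = 7.06e-05), and using it as the reference moved the median interaction of all genes to -0.52, against -0.17 with the TPM as deposited. Directions below are therefore relative to the median of all genes, which was 0.01 for the interaction. Of the 198 genes, 197 kept opposite signs in both media with the TPM as deposited and 134 with ACT1 scaling. All 128 genes of the other kind did so under both.

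In WT, 188 of the 198 genes were lower in raffinose than in YPD, with a median log2 difference of -1.27, and 127 of the 128 were higher, with a median of 0.92. In K655/657Q the medians were -0.30 and -0.08, and the difference between media was smaller than in WT for 175 and for 118 of them. Over all genes tested it was smaller in K655/657Q for 67.5%. These are the same libraries seen the other way round, so they restate the interaction as a narrower gap between media in K655/657Q.

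Enzymes that make serine, glycine and one-carbon units were lower in K655/657Q in YPD and higher in raffinose for 7 of 19 genes, and none had the reverse pattern. Folate-bound one-carbon units come from serine and glycine and feed purine and methionine synthesis. Of the 19 genes tested, 10 were called upward and none downward, with medians of -0.29 in YPD and 0.27 in raffinose. GCV2 encodes the P subunit of glycine cleavage, and it measured 117 and 110.2 scaled TPM in WT on YPD, 29.0 and 32.1 in K655/657Q on YPD, 13.3 and 11.9 in WT on raffinose, and 21.7 and 22.9 in K655/657Q on raffinose. The YPD libraries of K655/657Q were thus far below WT and the raffinose libraries above it. The interaction was 2.64 (SE 0.14, adjusted p = 2.89e-09), or 6.25-fold. GCV1, the T subunit, fell by 1.39 in YPD and rose in raffinose by 0.96, and GCV3, the H subunit, fell by 1.07 and rose by 0.86, both on the log2 scale. SHM2, the cytosolic serine hydroxymethyltransferase, was the most abundant of the 7 by TPM, a per-length scale, in WT on YPD. It measured 1211 and 1170 scaled TPM in WT and 344 and 388 in K655/657Q on YPD, against 112 and 102 in WT and 144 in both K655/657Q libraries on raffinose. SER3, a phosphoglycerate dehydrogenase at the start of serine synthesis, had an interaction of 2.26 (adjusted p = 1.41e-06), though a regulatory noncoding RNA gene overlaps its annotation. Its paralog SER33 fell by 0.43 in YPD and had 0.19 in raffinose (adjusted p = 0.075), so it was called upward without opposite effects. SER2, the last step of serine synthesis, was higher in K655/657Q in both media (0.69 and 0.48), with an uncalled interaction of -0.21.

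**Figure D2:**
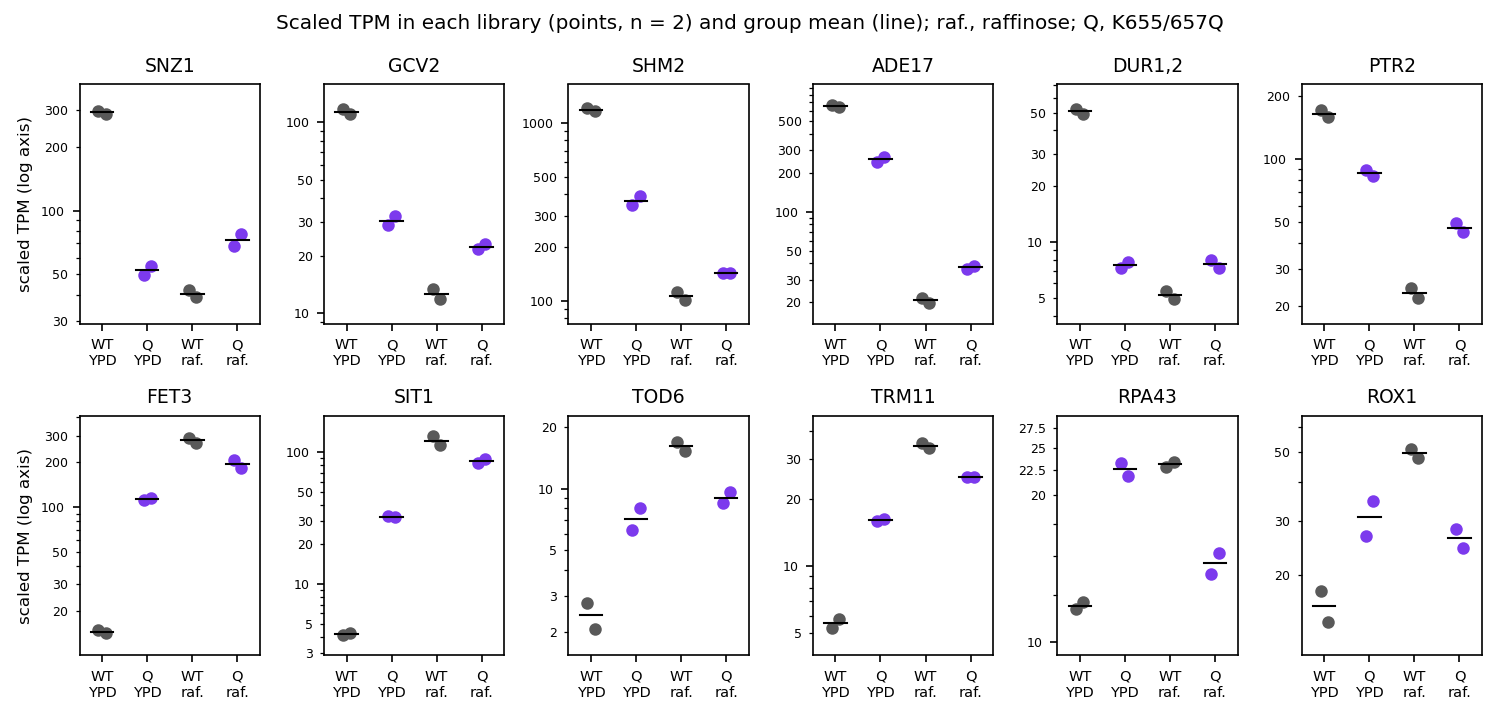
Scaled TPM on a log axis in each of the 8 libraries (points, 2 per group) with the group mean (line), for 6 genes lower in K655/657Q in YPD and higher in raffinose (top row) and 6 of the reverse kind (bottom row). In every panel the K655/657Q libraries lie on opposite sides of WT in the 2 media, which the choice of these genes all but fixes.

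Purine synthesis had mostly upward calls, and SHM2 and MTD1 belong to both lists. Of 24 genes, 11 were called upward and 4 downward, with 7 and 2 having opposite effects. ADE17, which adds the last one-carbon unit and closes the purine ring, had 668 and 636 scaled TPM in WT on YPD and 242 and 266 in K655/657Q. In raffinose it had 21.7 and 19.7 in WT and 36.3 and 38.4 in K655/657Q. Its interaction was 2.18 (SE 0.14, adjusted p = 3.31e-08). ADE1, ADE8 and ADE13, other steps of the pathway, fell in YPD (-0.71, -0.53 and -0.92) and rose in raffinose (0.54, 0.51 and 0.25). The reverse pattern was found for AAH1, the adenine deaminase of purine salvage (0.85 in YPD, -0.86 in raffinose), and for BAS1, an activator of the ADE genes (0.21 and -0.42). The other downward calls, APT1 and HPT1, are phosphoribosyltransferases of purine salvage. GUD1, a guanine deaminase, was among the 7 genes of the upward kind, with -0.63 in YPD and 0.38 in raffinose. ADE2 itself, the gene with the unsettled allele, fell by 0.49 in YPD and had 0.25 in raffinose (adjusted p = 0.0625). In pyrimidine synthesis 6 of 14 genes were called upward and 2 downward. URA1, URA4 and URA8 were lower in YPD and higher in raffinose, with URA1, the dihydroorotate dehydrogenase, at -0.94 and 0.55. URA7, a CTP synthase and paralog of URA8, had the reverse pattern: it measured 17.7 and 16.4 scaled TPM in WT and 29.7 and 37.6 in K655/657Q on YPD, and 39.9 and 32.3 in WT and 23.1 and 25.8 in K655/657Q on raffinose. Its interaction was -1.48.

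The promoters of these genes are shown because 63.2% of the one-carbon list and 45.8% of the purine list hold TGACTC, on either strand, within the 250 bases before the start codon or its first 50 bases, against 8.17% of the promoters of 5793 genes tested. Gcn4, the activator of amino acid synthesis, binds this sequence, and Bas1 binds the same letters. Of the 196 promoters of genes with the same pattern as GCV2, 17.3% held it. The stretches below are from the R64 assembly of RefSeq, written 5′ to 3′ toward the gene, with the match in capitals (GAGTCA is the same match on the other strand).
GCV1 (chrIV:485483-485528, minus strand): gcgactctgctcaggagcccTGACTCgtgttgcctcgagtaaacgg
GCV2 (chrXIII:637250-637286, plus strand): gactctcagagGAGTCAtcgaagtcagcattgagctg
GCV3 (chrI:58534-58595, minus strand): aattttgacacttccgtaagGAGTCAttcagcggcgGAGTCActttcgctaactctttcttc
SHM2 (chrXII:259603-259648, minus strand): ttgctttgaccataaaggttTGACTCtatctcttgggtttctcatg
MTD1 (chrXI:590201-590246, plus strand): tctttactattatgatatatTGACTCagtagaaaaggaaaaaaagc
ADE17 (chrXIII:509432-509477, minus strand): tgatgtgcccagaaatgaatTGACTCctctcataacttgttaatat
ADE1 (chrI:169129-169183, plus strand): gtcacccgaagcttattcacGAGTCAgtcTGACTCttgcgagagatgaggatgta
A match is a description of these letters and not evidence that a factor bound there.

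Other amino acid pathways had mostly upward calls with few opposite effects. The arginine list had 10 of 15 genes called upward and the aromatic list 10 of 15, with 1 gene of opposite effects in each. The arginine list was still below WT in raffinose (median -0.24, 12 of 15 genes below 0), as was the branched-chain list (-0.22, with 3 of 12 called upward), whereas the aromatic list had 0.05. Histidine synthesis had 5 genes called upward and 1 downward, HIS6 (-0.66). Lysine synthesis had 3 upward and 1 downward, LYS20, a homocitrate synthase, which rose in YPD (0.44) and fell in raffinose (-0.49). ARG4, argininosuccinate lyase, fell by 1.86 in YPD and had -0.11 in raffinose (adjusted p = 0.45). HIS4, a trifunctional enzyme of histidine synthesis, fell by 1.51 in YPD and had 0.23 in raffinose (adjusted p = 0.077). ARO10, which decarboxylates phenylpyruvate in the breakdown of aromatic amino acids, was the aromatic gene with opposite effects (-2.08 and 0.34). In sulfate assimilation and methionine synthesis 13 of 39 genes were called upward, and 3 had opposite effects: MET6, the methionine synthase (-1.96 and 0.29), MET17 (-0.85 and 0.65), which makes homocysteine, and MET14 (-0.99 and 0.55), a kinase of sulfate assimilation. An unnamed open reading frame, YLR302C, overlaps MET17.

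The list of thiamine and vitamin B6 had 4 of 27 genes called upward and 1 downward, PHO3 (-1.08), a share below that of all genes, and a median interaction of 0.14. Its 3 genes with opposite effects were SNZ1, SNO1 and PDX3, all of vitamin B6 metabolism. SNZ1 and SNO1, divergent neighbours that encode subunits of pyridoxal phosphate synthase, had interactions of 3.31 and 2.90. SNZ1 measured 299 and 289 scaled TPM in WT on YPD and 49.5 and 54.6 in K655/657Q, then 42.1 and 38.8 in WT on raffinose and 68.2 and 77.3 in K655/657Q. It was the gene with the highest interaction of all those with opposite effects (9.90-fold, SE 0.17 on the log2 scale, adjusted p = 2.72e-09). The stretch of its promoter with TGACTC is given for the same reason as those above.
SNZ1 (chrXIII:458209-458254, plus strand): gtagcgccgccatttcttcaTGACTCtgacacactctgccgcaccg
In the list of biotin, NAD and other cofactors 10 of 30 genes were called upward, none downward, and 6 had opposite effects. BNA1, BNA2 and BNA4, which are steps of NAD synthesis from tryptophan, and BNA3, a kynurenine aminotransferase, had interactions from 1.08 to 1.32. NPT1, which salvages nicotinic acid into NAD, fell by 0.87 in YPD and rose in raffinose by 0.25. An unnamed open reading frame, YJR079W, overlaps BNA2.

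Genes that yeast represses when a good nitrogen source is present were called upward in 19 of 38 cases and downward in none. Their median was -0.63 in YPD and 0.01 in raffinose, so the median deficit was found in YPD and not in raffinose, and 5 had opposite effects. DUR1,2, the urea amidolyase, measured 52.5 and 49.2 scaled TPM in WT on YPD and 7.26 and 7.83 in K655/657Q, and 5.42 and 4.90 in WT on raffinose and 7.98 and 7.19 in K655/657Q. Both K655/657Q groups thus had nearly the same level, below WT in YPD and above it in raffinose. Its interaction was 3.08 (SE 0.13, adjusted p = 5.52e-10). PTR2, the transporter of di- and tripeptides, fell by 0.93 in YPD and rose by 1.01 in raffinose. The vacuolar proteases CPS1 and PRB1 and the glutathione-degrading ECM38 were the other members with opposite effects. OPT2, an oligopeptide transporter, fell by 2.60 in YPD and had 0.13 in raffinose (adjusted p = 0.39). GATAAG, the core recognised by the GATA factors of nitrogen control, was in 50.0% of the promoters of this list and in 14.8% of all promoters. The list was compiled by nitrogen control, so its share does not bear on the K655/657Q effect. Among promoters of genes lower in YPD and higher in raffinose, 16.8% held GATAAG.

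Autophagy and vacuolar proteolysis overlapped that list in CPS1, PRB1, APE1 and ATG14. Of 38 genes 13 were called upward and none downward, and 6 had opposite effects. PEP4, the vacuolar aspartyl protease that activates the other hydrolases, measured 871 and 855 scaled TPM in WT and 521 and 513 in K655/657Q on YPD, and 290.0 and 294 in WT and 416 and 418 in K655/657Q on raffinose. Its effects of -0.74 and 0.51 were both past the threshold for p, with an interaction of 1.25 (SE 0.13, adjusted p = 2.59e-06). PRC1, carboxypeptidase Y, and ATG19, a receptor that delivers hydrolases to the vacuole, had interactions of 0.73 and 0.80.

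Reserve carbohydrates followed the same direction. Yeast stores glucose as glycogen and trehalose when growth slows. Of 14 glycogen genes 7 were called upward and none downward, and 5 had opposite effects: the synthases GSY1 and GSY2, the branching enzyme GLC3, the debranching enzyme GDB1 and the phosphorylase GPH1. GPH1 measured 156 and 146 scaled TPM in WT and 105.4 and 105.2 in K655/657Q on YPD, and 70.32 and 75.01 in WT and 131 and 126 in K655/657Q on raffinose. The interaction was 1.33 (SE 0.21, adjusted p = 0.000124). Genes for making and for breaking down glycogen thus had the same pattern. Of 10 trehalose genes 5 were called upward and 3 had opposite effects: ATH1, UGP1 and PGM2, and none of the TPS genes. TSL1, a regulatory subunit of trehalose synthase, differed from these: it had 0.12 in YPD (adjusted p = 0.50) and rose in raffinose by 1.18, from 15.0 and 19.7 to 43.8 and 37.1 scaled TPM. TPS1, the synthase subunit, had -0.22 in YPD (adjusted p = 0.054) and rose in raffinose by 0.56.

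**Figure D3:**
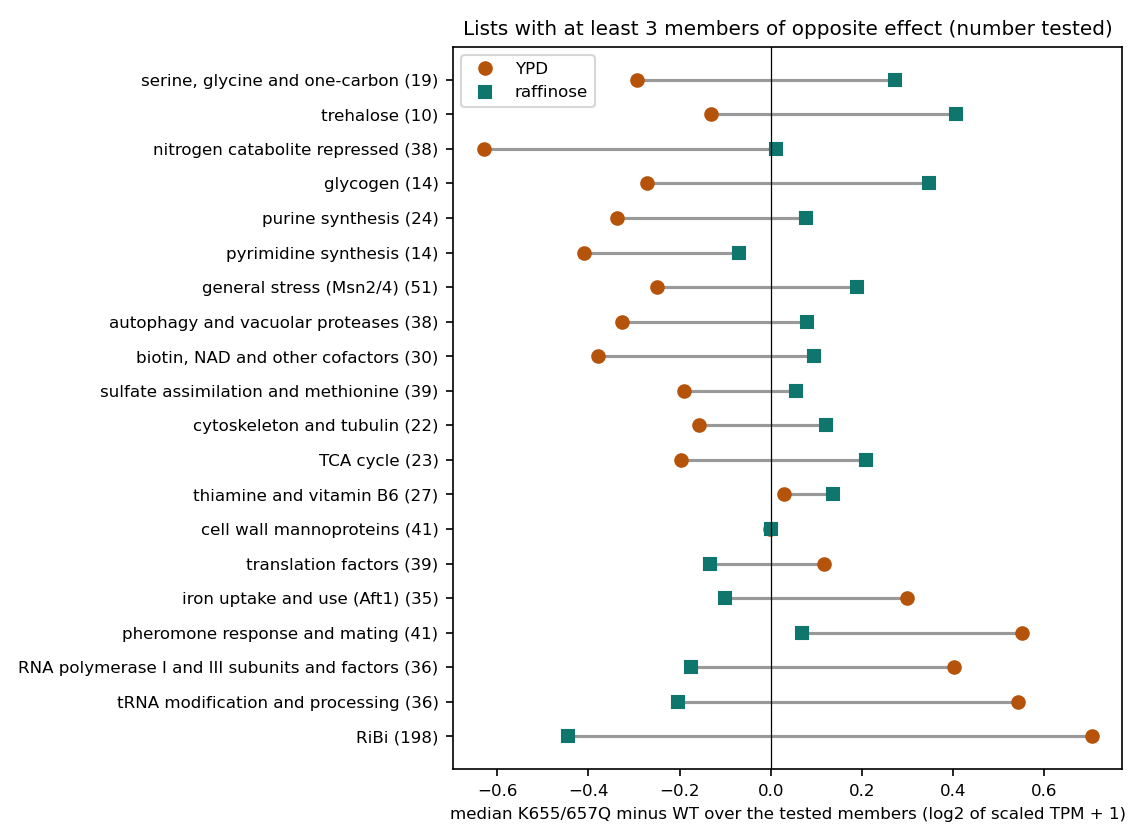
Medians of the K655/657Q effect in YPD (circles) and in raffinose (squares), on the log2 scale, for the 20 lists, RiBi included, with at least 3 genes of opposite effects, with the number of genes tested in parentheses. Serine, glycine and one-carbon genes run from -0.29 to 0.27 and RiBi genes from 0.70 to -0.45, whereas with ACT1 scaling the YPD medians of 28 of the 49 lists described take the other sign.

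Targets of the stress factors Msn2 and Msn4 were called upward in 16 of 51 cases and downward in 1, and 6 had opposite effects. HSP26, a small heat shock protein, measured 156 and 146 scaled TPM in WT and 108 and 106 in K655/657Q on YPD, and 93.2 and 95.5 in WT and 158 and 208 in K655/657Q on raffinose. Its interaction was 1.43 (SE 0.17, adjusted p = 7.72e-06). TFS1, an inhibitor of carboxypeptidase Y, fell by 0.97 and rose by 0.62, and DCS2, a stress-induced regulator of mRNA decapping, fell by 0.53 and rose by 0.95. YGP1, a secreted glycoprotein, had a larger interaction of 2.36 that came from YPD alone (-2.42, against -0.06 in raffinose with an adjusted p of 0.62). The stress element CCCCT was in 43.9% of the promoters of genes lower in YPD and higher in raffinose, in 64.7% of this list, in 10.8% of the promoters of the reverse kind and in 22.0% of all. This list was compiled by control through Msn2 and Msn4, so its own share does not bear on the K655/657Q effect. Heat shock chaperones as a list were close to the background, with 2 of 30 called upward and 3 downward.

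Carbon metabolism was split. Glycolysis had 13 of 22 genes called upward and none downward, with medians of -0.61 in YPD and -0.04 in raffinose and 1 gene of opposite effects, PFK26, a kinase that makes fructose 2,6-bisphosphate. TDH1, a glyceraldehyde-3-phosphate dehydrogenase, measured 4098 and 3844 scaled TPM in WT and 667 and 661 in K655/657Q on YPD, and 826, 809, 791 and 837 in the 4 raffinose libraries. The raffinose groups overlapped, and the interaction was 2.57 (SE 0.32, adjusted p = 1.25e-05). TDH1 has close paralogs, and how the shared reads were divided among them is set by the quantification. In the TCA cycle 6 of 23 genes were called upward, of which 4 had opposite effects: LSC2 (-0.59 and 0.33), a subunit of succinyl-CoA ligase, fumarase FUM1 (-0.39 and 0.25), and the pyruvate dehydrogenase subunits LAT1 (-0.33 and 0.35) and PDB1 (-0.33 and 0.29). Gluconeogenesis and acetate use had 5 upward and 7 downward calls among 24 genes, and all 7 downward genes fell in raffinose. FBP1, fructose 1,6-bisphosphatase, had -0.27 in YPD (adjusted p = 0.22) and fell by 1.15 in raffinose, from 85.8 and 84.3 to 44.3 and 32.2 scaled TPM, and ADH2, the alcohol dehydrogenase that glucose represses, fell there too (-1.32).

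Genes of the actin cytoskeleton formed a smaller group. Of 22 cytoskeleton genes 8 were called upward, none downward, and 5 had opposite effects. ARP2 and ARP3 nucleate branched actin filaments, ABP1 activates them, SAC6 bundles the filaments and CAP1 caps them. SAC6 measured 242 and 227 scaled TPM in WT and 140.4 and 163 in K655/657Q on YPD, and 76.1 and 74.7 in WT and 104 and 97.3 in K655/657Q on raffinose, an interaction of 1.04 (SE 0.12, adjusted p = 4.73e-06). Scaling to ACT1, itself called upward, left no gene of the list called upward and 5 called downward.

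Iron acquisition held FET3 and SIT1, the genes with the most negative interactions of all those higher in YPD and lower in raffinose. Under iron shortage the factor Aft1 induces a ferroxidase and permease pair, reductases and siderophore transporters. Of 35 genes of the list 13 were called downward and 2 upward, and 5 had opposite effects, with medians of 0.30 in YPD and -0.10 in raffinose. FET3, the ferroxidase, measured 14.9 and 14.0 scaled TPM in WT and 112 and 116 in K655/657Q on YPD. On raffinose it measured 293 and 269 in WT and 208 and 183 in K655/657Q. K655/657Q was above WT in YPD (7.42-fold on the log2(scaled TPM + 1) scale, which understates the ratio of the TPM) and below it in raffinose. The interaction was -3.41 (SE 0.13, adjusted p = 2.12e-10). SIT1, a siderophore transporter, rose in YPD by 2.68 from 4.13 and 4.27 to 32.6 and 32.1 scaled TPM, and fell by 0.50 in raffinose, for an interaction of -3.19. FTR1, the permease partner of FET3, rose in YPD by 2.31 and had -0.04 in raffinose (adjusted p = 0.79). FIT2, a cell wall protein that holds siderophores, had 26.3 and 25.9 scaled TPM in WT and 40.6 and 35.1 in K655/657Q on YPD, and 1087 and 1194 in WT and 780 and 922 in K655/657Q on raffinose. HMX1, a heme oxygenase, and FRE6, a vacuolar reductase, rose in YPD (0.52 and 0.40) and fell in raffinose (-0.51 and -0.31). The upward calls were CCC1, which stores iron in the vacuole, and GRX4, a glutaredoxin that restrains Aft1. CTR1, the plasma membrane copper transporter on which FET3 depends for its cofactor, is outside the list and had 1.61 in YPD and -0.41 in raffinose (adjusted p = 0.047).

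The Aft1 core TGCACCC was in 14 of the 35 promoters of the iron list, on either strand, and in 1.29% of all promoters. Of the 3 iron genes with the largest interactions, SIT1 and FTR1 had a match and FET3 had none in this window. Their stretches are printed with the match in capitals (GGGTGCA is the other strand).
SIT1 (chrV:27449-27495, plus strand): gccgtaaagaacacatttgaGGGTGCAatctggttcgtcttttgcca
FTR1 (chrV:461889-461935, minus strand): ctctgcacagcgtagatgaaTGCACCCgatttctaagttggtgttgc

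Genes that build RNA polymerases I and III and that modify tRNA had downward calls and no upward ones. They are not on the RiBi list but supply the same machinery. The study also has a RiBi-like cluster, other growth genes targeted by Sfp1. It reported that cluster as higher in K655/657Q in YPD and lower in raffinose. Which genes named here belong to that cluster was not checked. Of 36 polymerase genes 17 were called downward, none upward, and 8 had opposite effects, with medians of 0.40 in YPD and -0.18 in raffinose. RPA43, a Pol I subunit that contacts the initiation factor Rrn3, measured 11.7 and 12.1 scaled TPM in WT and 23.3 and 22.0 in K655/657Q on YPD, and 22.9 and 23.4 in WT and 13.8 and 15.3 in K655/657Q on raffinose. The groups exchanged places between media, and the interaction was -1.52 (SE 0.12, adjusted p = 2.08e-07). The Pol I subunits RPA34, RPA49, RPA135 and RPA190 and the Pol III subunits RPC37, RPC31 and RET1 had interactions between -1.37 and -0.83. In tRNA modification 22 of 36 genes were called downward, none upward, and 6 had opposite effects. TRM11, the catalytic subunit of a guanosine methyltransferase, measured 5.29 and 5.81 scaled TPM in WT and 15.8 and 16.2 in K655/657Q on YPD, and 35.5 and 33.6 in WT and 25.1 and 24.9 in K655/657Q on raffinose. Its interaction was -1.83 (SE 0.10, adjusted p = 4.99e-09). TRM8 and TRM82, which form the 7-methylguanosine enzyme, had -0.95 and -1.04, and the La protein LHP1, which binds new tRNA transcripts, had -0.94. Translation factors had 6 of 39 called downward and 1 upward, a share of 17.95% that is below the 20.04% of all genes. The downward genes GCD10 and GCD14 are also the methyltransferase for adenosine in tRNA, while the release factor SUP35 (0.27 and -0.46) acts in translation itself.

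TOD6, a repressor of RiBi genes that binds the PAC element, was itself higher in YPD and lower in raffinose. It measured 2.76 and 2.05 scaled TPM in WT and 6.255 and 8.004 in K655/657Q on YPD, and 17.0 and 15.4 in WT and 8.52 and 9.58 in K655/657Q on raffinose, an interaction of -2.03 (SE 0.19, adjusted p = 9.02e-07). Its paralog DOT6 had 0.34 and was not called. PAC, GATGAG, was in 43.3% of the 120 promoters of genes with this direction of opposite effects, in 63.9% of the polymerase list, in 66.7% of the tRNA modification list, in 85.9% of RiBi promoters and in 19.7% of all. RRPE, AAAATTTT, was in 30.8% of the 120, in 67.2% of RiBi promoters and in 9.22% of all. The 120 may include ribosome assembly genes that the RiBi list misses, as 69 named genes of the 128 were in no list. Their part in these shares was not tested. The PAC matches of RPA43 and TOD6 are shown in capitals, and TRM11 had no match in this window.
RPA43 (chrXV:960339-960384, minus strand): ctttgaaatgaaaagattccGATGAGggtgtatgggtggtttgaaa
TOD6 (chrII:117339-117400, plus strand): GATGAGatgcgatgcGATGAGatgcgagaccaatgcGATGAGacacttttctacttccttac

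**Figure D4:**
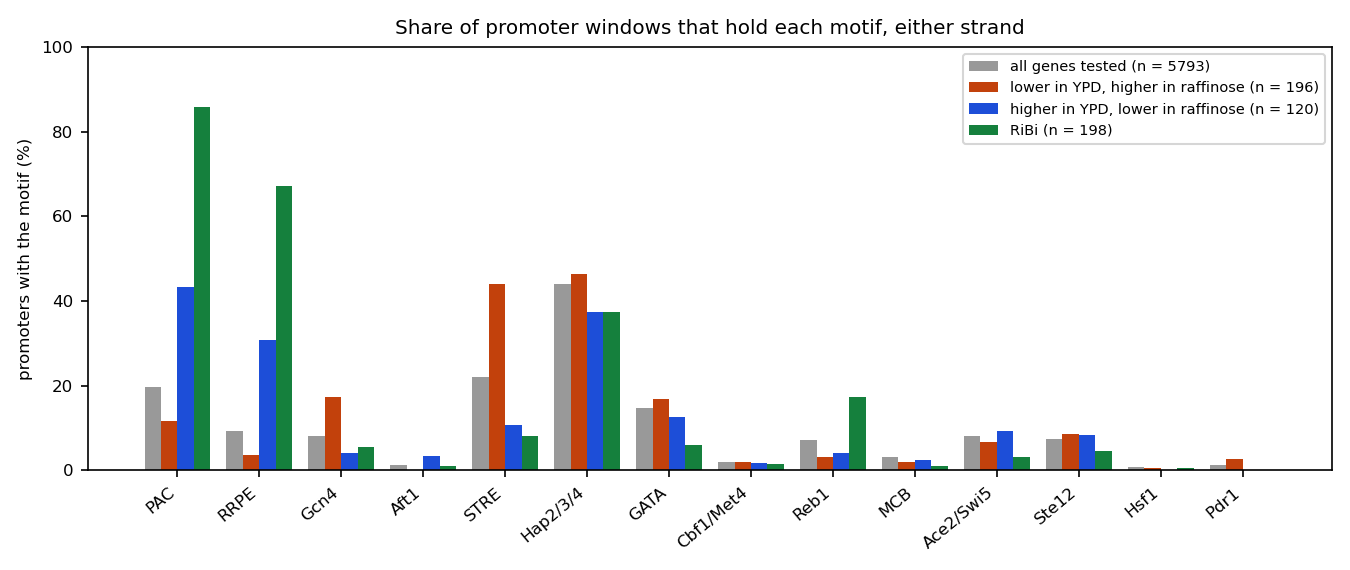
Percentage of 300-base promoter windows that hold each motif on either strand, for all genes tested, for both kinds of genes with opposite effects outside RiBi and RP, and for RiBi genes. PAC and RRPE are commoner among genes higher in YPD and lower in raffinose (43.3% and 30.8%), and the stress element among genes of the reverse kind (43.9%).

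Mating genes had mostly downward calls. Haploid cells of mating type a express pheromone response genes at a basal level. Of 41 genes of the list 15 were called downward and 1 upward, with medians of 0.55 in YPD and 0.07 in raffinose. AGA1, the anchor of the a-agglutinin, measured 15.4 and 16.1 scaled TPM in WT and 66.3 and 71.5 in K655/657Q on YPD, and between 17.9 and 21.5 in the 4 raffinose libraries. Its interaction was -2.24 (SE 0.13, adjusted p = 7.84e-09). The summed MATa markers, which include the pheromone genes MFA1 and MFA2, were at 38320 and 40370 TPM in K655/657Q on YPD and between 16250 and 21920 TPM in the other 6 libraries, and their part in this result was not tested. Opposite effects were found for PRM7, PRM10 and FIG2, and in the other direction for STE13, a protease that matures alpha-factor. PRM7 and its neighbour BSC1 had interactions of -2.79 and -2.81, and they are adjoining reading frames on chromosome IV. PRM10 overlaps YJL107C in the annotation. FIG2, an adhesin of mating cells, rose by 0.84 and fell by 0.20.

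Cell wall mannoproteins had 9 of 41 genes called downward and 4 upward. TIR1, an anaerobic and cold-shock mannoprotein, measured 28.7 and 28.1 scaled TPM in WT and 117 and 111 in K655/657Q on YPD, and between 8.46 and 10.9 in the raffinose libraries. TIP1, of the same family, had opposite effects (1.30 and -0.43). ROX1, which represses hypoxic genes, measured 17.8 and 14.1 scaled TPM in WT and 26.8 and 34.8 in K655/657Q on YPD, and 51.1 and 47.9 in WT and 28.3 and 24.5 in K655/657Q on raffinose. Its interaction was -1.79 (SE 0.19, adjusted p = 2.52e-06). AQY2, an aquaporin, had an interaction of -2.04, and it overlaps YLL053C, which had opposite effects too, so their reads may be shared.

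Outside the lists, MNC1 had the largest effect in raffinose of the genes with opposite effects. It measured 768 and 751 scaled TPM in WT and 400.3 and 419 in K655/657Q on YPD, and 81.2 and 133 in WT and 366 and 297 in K655/657Q on raffinose. The WT raffinose libraries were far apart, and the interaction was 2.54 (SE 0.32, adjusted p = 1.38e-05). RTA1, from the list of drug pumps and Pdr1 targets, fell by 2.59 in YPD and rose by 0.44 in raffinose.

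Some functions showed no call. None of 36 proteasome genes and none of 23 genes of mitotic cyclins and G2/M was called, with median interactions of -0.10 and -0.15. The aminoacyl-tRNA synthetases had 1 of 18 called, mitochondrial ribosomal proteins 8 of 79, and ATP synthase 1 of 20, each below the 20.04% of all genes. Of the 58 lists outside RiBi and RP, 22 held only upward calls, 7 only downward calls and 2 none.

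The genes with opposite effects were then followed into libraries outside the interaction contrast, taken 15 and 30 min after glucose was added to the raffinose cultures. Those libraries did enter the scaling, the TPM minimum and the shared estimate of spread. They may be later samples of the same cultures, which the labels do not say. The 198 genes lower in YPD and higher in raffinose had a median K655/657Q effect of 0.25 at 15 min and 0.19 at 30 min, and 172 and 161 of them were above 0. Of these genes 28 were called higher at 15 min and 5 lower (2.27% and 2.47% of all genes tested), and 8 higher and 2 lower at 30 min (1.10% and 2.80%). The 128 genes of the reverse kind had medians of -0.32 and -0.26, with 117 and 112 below 0. Of them 13 were called lower and 1 higher at 15 min, and 17 lower and 1 higher at 30 min. The sign after glucose addition was thus that of raffinose and not that of growth in YPD for most of these genes. Over all 6357 genes tested, 3218 were above 0 and 3139 below at 15 min, and 3353 above and 3004 below at 30 min. SNZ1 was higher in K655/657Q at 15 min by 1.16 and at 30 min by 0.57, and PTR2 by 1.90 and 1.01. ADE17 rose by 0.41 at 15 min and fell by 0.38 at 30 min. BSC1 fell at both times (-1.42 and -1.69). Among the exceptions were SRY1, a 3-hydroxyaspartate dehydratase, which fell (-0.40 and -0.36), and TIP1, which rose by 0.60 and 0.64.

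**Figure D5:**
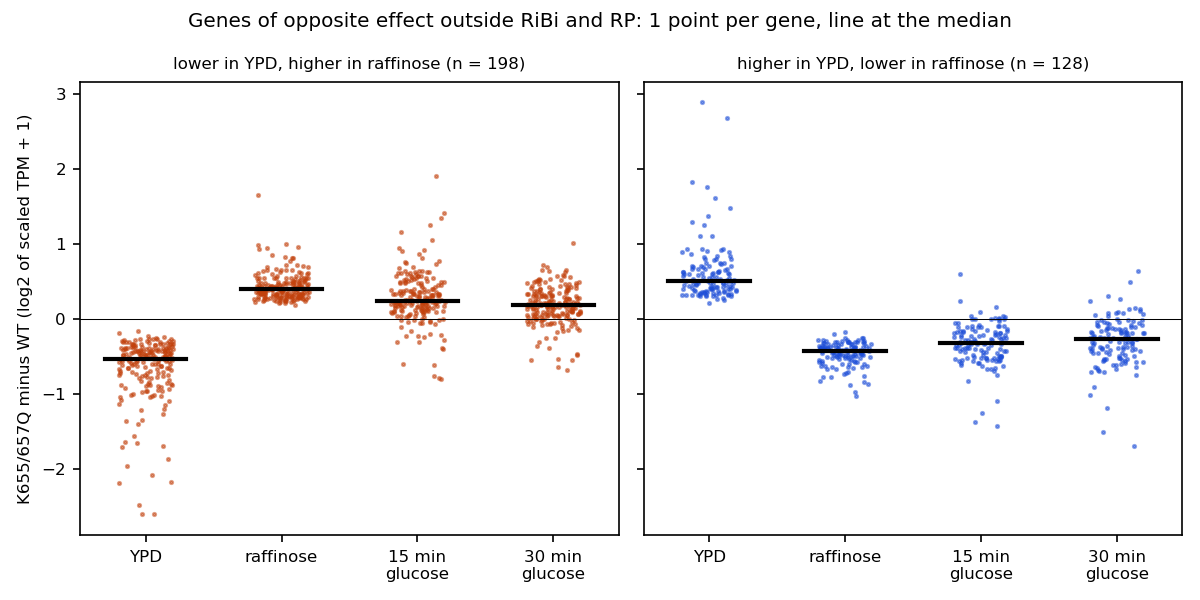
K655/657Q minus WT on the log2 scale for each gene with opposite effects outside RiBi and RP (points) and the median (line), in YPD, in raffinose, and 15 and 30 min after glucose was added to raffinose cultures. The effects in the YPD and raffinose columns chose these genes. The libraries of the 15 and 30 min columns entered the choice only through the scaling, the TPM minimum and the shared spread. In those columns the medians are 0.25 and 0.19 on the left and -0.32 and -0.26 on the right.

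The same interaction was computed for K655/657R, which shares the 4 WT libraries, so its values are only set side by side. It was called for 70 genes upward (1.10%) and 87 downward (1.37%). The median interaction of the one-carbon list was 0.59 in K655/657Q and 0.25 in K655/657R, that of glycogen 0.51 and 0.39, that of trehalose 0.58 and 0.47, and that of the TCA cycle 0.26 in both. For nitrogen-repressed genes the medians were 0.54 and -0.04, for iron -0.37 and -0.07, and for Pol I and III -0.53 and -0.04. The arginine list had medians of opposite sign, 0.62 and -0.48, and in K655/657R 6 of its 15 genes were called downward and 1 upward. FET3 had -3.41 in K655/657Q and -0.03 in K655/657R (adjusted p = 0.93), and GCV2 had 2.64 and 0.45 (adjusted p = 0.061).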

How the data were processed

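Poly(A) RNA of yeast strains was sequenced from directional libraries (NEBNext). The authors trimmed reads with fastp 0.23.2, quantified them with kallisto 0.48.0 against R64 (sacCer3) and deposited TPM per gene, a unit relative to each library's total. Whether strand was used in quantification is not given in the sources used here.

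TPM were divided by median-of-ratios size factors. log2(scaled TPM + 1) was fitted with limma 3.58.1 (R 4.3.3, trend) over 23 libraries in 12 groups, without 30 min K655/657R replicate 2, which the study also left out. Genes with a mean of at least 1 TPM were tested, with Benjamini-Hochberg adjustment over all 6357. TPM hold no counts, so limma stands in for the count model of the study. The fit was tested on simulated data.

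Members and lists were chosen with earlier results of these data known. Named genes were, in each direction and outside RiBi and RP, the 12 with the largest interaction and the 12 with the largest opposite effects (mean of at least 10 TPM), up to 4 called genes per list with at least 3 or 20% called, SFP1 and ACT1. Other genes named were chosen after their values were seen. The RiBi and RP lists were compiled for this work. Symbols for 189 genes came from RefSeq. Promoters were cut from the R64 RefSeq genome, from 250 bases before the start codon to 50 from it (5793 tested genes). Alternatives covered pseudocounts, filters, scalings, thresholds, sample sets and left-out replicates.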

Additional observations from a re-analysis of the deposited data

Results flagged for a closer look

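The K655/657Q effect differed between media, by the limma test of the difference itself, for 678 genes whose effect was more positive in raffinose and for 596 whose effect was more negative there. Outside RiBi and RP genes, 198 genes had effects past the threshold in both media that went from negative in YPD to positive in raffinose, and 128 had the reverse.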

How the results depend on the processing

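The scaling, the fold threshold and the libraries fitted moved counts by over 1.5 times. With the TPM as deposited the upward and downward calls were 382 and 981 and the upward opposite effects 103. With ACT1 scaling there were 2791 calls (133 upward, 2658 downward) and 660 opposite effects (31 upward, 629 downward), and VMA4 had -0.0007 (adjusted p = 0.997). With all 24 libraries the opposite effects numbered 148 (89 and 59). Without the fold threshold there were 2363 calls (1273 and 1090), and at 2-fold 470 calls (215 and 255) with 150 opposite effects (93 and 57). With 1 library left out at a time there were 1165 to 1389 calls (593 to 712 upward, 572 to 677 downward) and 184 to 322 opposite effects (116 to 207 upward, 68 to 130 downward). The replicate numbers did not pair the libraries (correlations of deviations from -0.347 to 0.307). With the replicate block there were 1275 calls and 312 opposite effects, which held 188 of the 198 and 118 of the 128 genes. Of 3503 values of 185 named genes under the alternatives, 3306 kept direction and call, 195 lost the call, 1 gained it and 1 changed sign. Relative to the median of all genes, 48 of 49 list medians kept their sign with the TPM as deposited and 45 with ACT1 scaling. The exceptions were DNA replication under both, and amino acid permeases, heat shock chaperones and cell wall mannoproteins with ACT1. This count tests little, because a change of scaling moves most genes by nearly the same amount and subtracting the median removes that shift. Without that subtraction, the median YPD effect took the other sign for 10 of the 49 lists with the TPM as deposited. The median raffinose effect did so for 1. With ACT1 scaling these numbers were 28 and 21, and the one-carbon medians were 0.12 in YPD and 0.13 in raffinose. Low genes are limited by the pseudocount, which shrinks their folds.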

Other observations

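Of the 326 genes with opposite effects, 74 of the 198 and 41 of the 128 belonged to a list. Some of the others are named here, picked after their values were seen and from these genes alone, so they say nothing of the pathways they belong to, whose other genes were not counted. Among genes lower in K655/657Q in YPD and higher in raffinose, ARC18 and ARC35, subunits of the complex of ARP2 and ARP3, had interactions of 0.89 and 0.81, and SRV2, which recycles actin monomers, had 1.05. RCN1 and RCN2, regulators of calcineurin, had 1.37 and 1.09, and the calcium pumps PMC1 and PMR1 had 1.08 and 0.81. Among genes of the reverse kind, GPN2, GPN3 and NPA3, related GTPases that help bring RNA polymerase II into the nucleus, had -0.60, -0.69 and -0.67.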
